A study of Mus musculus with 7 samples.

Results

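Condensin and topoisomerase II are the enzymes that fold and disentangle chromosomes. Their transcripts were followed here through 10 genes: Smc2, Smc4, Ncapd2, Ncapg, Ncaph, Ncapd3, Ncapg2, Ncaph2, Top2a and Top2b. These members were chosen by name with earlier results of these data known. The values come from RNA of 7 primary lines of mouse embryonic fibroblasts (MEFs), cells grown from minced embryos of embryonic day 13.5 without the head and taken at passage 4 after reaching confluency. In 4 lines, called Df/+Bl6, the chromosome 4 homologue from 129S5/SvEvBrd carried the engineered deletion Df and the other homologue, from C57BL/6J, was intact. The 3 control lines, +129/+Bl6, had an intact homologue of each of the same strains. The Df/+Bl6 embryos came from crosses of Df/Dp chimeric males with C57BL/6J. For the controls the paper names F1 +129/+Bl6 crosses, and whether these had the same parents is not clear from it. Lines of both genotypes are hybrids of both strains, and neither a litter nor a batch is given for any line. A difference of cross or litter therefore cannot be told apart from genotype. All 10 members were among the 15531 genes that the authors tested in the comparison of counts summed over both alleles, called combined here.

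Condensin is a ring of 5 proteins that compacts chromosomes for mitosis. A pair of ATPases, Smc2 and Smc4, is shared by both forms of the complex, condensin I and condensin II. Each form adds a kleisin that closes the ring (Ncaph in condensin I, Ncaph2 in condensin II) and a pair of HEAT repeat subunits (Ncapd2 and Ncapg in condensin I, Ncapd3 and Ncapg2 in condensin II). In interphase, condensin II is found in the nucleus and condensin I largely in the cytoplasm until the nuclear envelope breaks down. Topoisomerase II cuts both strands of a DNA duplex, passes another duplex through the break and reseals it, which separates the sister chromatids. Of its isoforms, Top2a is made mainly by dividing cells, while Top2b is also made by cells that have left the cycle.

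Of the 10 members, 9 were in the authors' table of the combined comparison, which lists genes past an FDR of 0.05, and all 9 were higher in Df/+Bl6. Over all tested genes, 8.67% were in that table, 5.13% as higher and 3.54% as lower in Df/+Bl6. Because the choice of members followed earlier results of these data, their share and their median below are descriptions and no independent result. The median log2 ratio of the Df/+Bl6 mean to the +129/+Bl6 mean was 1.47 over the 9 listed members, against 0.80 over the 796 genes of the table that were higher in Df/+Bl6 and 0.61 over all 1346 genes of the table. Of the members, 5 were listed with a log2 ratio of at least 1. Of the tested genes, 1.45% were listed as higher with such a ratio, and unlisted genes have no ratio here. After centring on the median of the table, the members' median was 0.86 and 2 had a ratio of at least 1. After centring within bins of GC content, chosen after seeing the data, these were 0.69 and 1. That 1 member was Ncapd2 (1.55), and all 5 members counted before centring lay under 1. Ncaph2 was tested but not listed, so it has no value here, and the medians cover only genes that passed the authors' threshold. Values are means of DESeq-normalized counts over the lines of a genotype. The table holds no value per line, and the deposited columns of single values carry no names and were not assigned to lines, so no standard deviation, overlap of lines or new test is given and differences between members were not set against the spread between lines. In bulk RNA, a larger share of cells in the cycle and more of these transcripts per cell cannot be told apart.

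**Figure D1:**
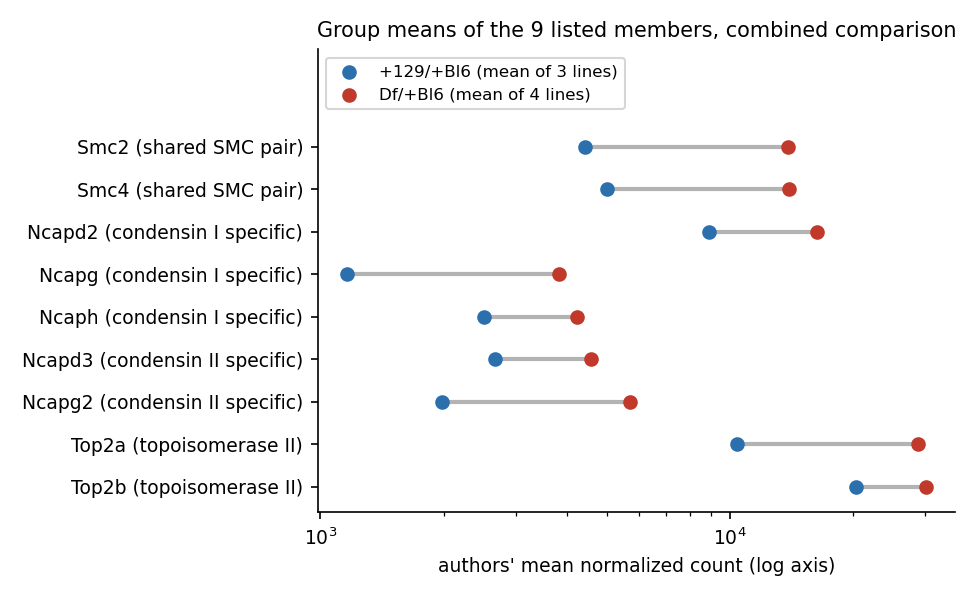
Authors' mean normalized counts of the 9 listed members in +129/+Bl6 (blue, mean of 3 lines) and Df/+Bl6 (red, mean of 4 lines) on a log axis; no error bars are drawn because no value per line was used. Every red point lies to the right of its blue point, with the widest gap for Ncapg (1160 and 3835) and the narrowest for Top2b (20382 and 30094).

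The ATPases that both complexes share rose together. Smc2 had a mean of 4437 normalized counts in +129/+Bl6 and 13861 in Df/+Bl6, which is a 3.12-fold difference (log2 ratio 1.64). Smc4, its partner in the heterodimer (ENSMUSG00000034349, chromosome 3, 69004738 to 69034623) went from 5014 to 13926 (2.78-fold, log2 ratio 1.47). They rank 22 and 42 by log2 ratio among the 796 genes that were higher in Df/+Bl6. Smc2 (ENSMUSG00000028312) is the single member on the chromosome that carries the deletion. It lies on chromosome 4 at 52439221 to 52488365 (GRCm38), and the members lie on 10 different chromosomes.

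The 3 subunits found only in condensin I were all listed as higher, but by unequal amounts. Ncapg (ENSMUSG00000015880, chromosome 5, 45669891 to 45700547), a HEAT repeat subunit, had the largest log2 ratio of all members, 1.72, with a mean of 1160 in +129/+Bl6 and 3835 in Df/+Bl6 (3.31-fold, rank 11 of 796). Ncapd2 (ENSMUSG00000038252, chromosome 6, 125168007 to 125192100), the other HEAT repeat subunit, went from 8907 to 16313 (1.83-fold, log2 ratio 0.87). Ncaph (ENSMUSG00000034906, chromosome 2, 127103809 to 127133954), the kleisin, went from 2512 to 4239 (1.69-fold, log2 ratio 0.76). Ncapd2 and Ncaph thus lie inside the quartiles of the genes that were higher, 0.65 and 1.04, whereas Ncapg lies far above them.

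Of the subunits found only in condensin II, 2 of 3 were listed, both as higher. Ncapg2 (ENSMUSG00000042029, chromosome 12, 116405351 to 116463532), the counterpart of Ncapg, rose from 1987 to 5690 (2.86-fold, log2 ratio 1.52, rank 36). Ncapd3 (ENSMUSG00000035024, chromosome 9, 27030165 to 27096522), the counterpart of Ncapd2, went from 2677 to 4583 (1.71-fold, log2 ratio 0.78). Ncapd3 is also in a gene ontology list that the study drew from these samples, so its direction is not independent of that choice. Ncaph2 (ENSMUSG00000008690, chromosome 15, 89355719 to 89372850), the kleisin, was not listed. Over both complexes, the 4 genes for the SMC pair and the G subunits had log2 ratios from 1.47 to 1.72, and the 3 listed genes for the D subunits and the kleisin of condensin I from 0.76 to 0.87. This grouping by role was made after the values were seen, and the difference between the groups was not tested. It also separates the genes by GC content of the longest transcript. The first 4 genes have 39.3% to 41.6% and the other 3 have 46.8% to 53.7%, so role and GC content cannot be told apart here.

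The isoforms of topoisomerase II differed. Top2a (ENSMUSG00000020914, chromosome 11, 98992947 to 99024199) had a mean of 10402 in the controls and 28791 in the deletion lines (2.77-fold, log2 ratio 1.47, rank 44 of 796). Top2b (ENSMUSG00000017485, chromosome 14, 16365206 to 16430787) went from 20382 to 30094 (1.48-fold, log2 ratio 0.56, rank 742), and 93.1% of the genes that were higher had a larger ratio. The log2 ratio of Top2a exceeded that of Top2b by 0.91, a difference without a test. The longest run of bases that their longest transcripts share is 23, shorter than the windows of 100 bases examined for shared reads. None of the 100-base windows of the 9 listed members occurs in a transcript of another protein-coding gene of the annotation, while 68 of the 3203 windows of Ncaph2 (2.12%) also occur in Gm7535.

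**Figure D2:**
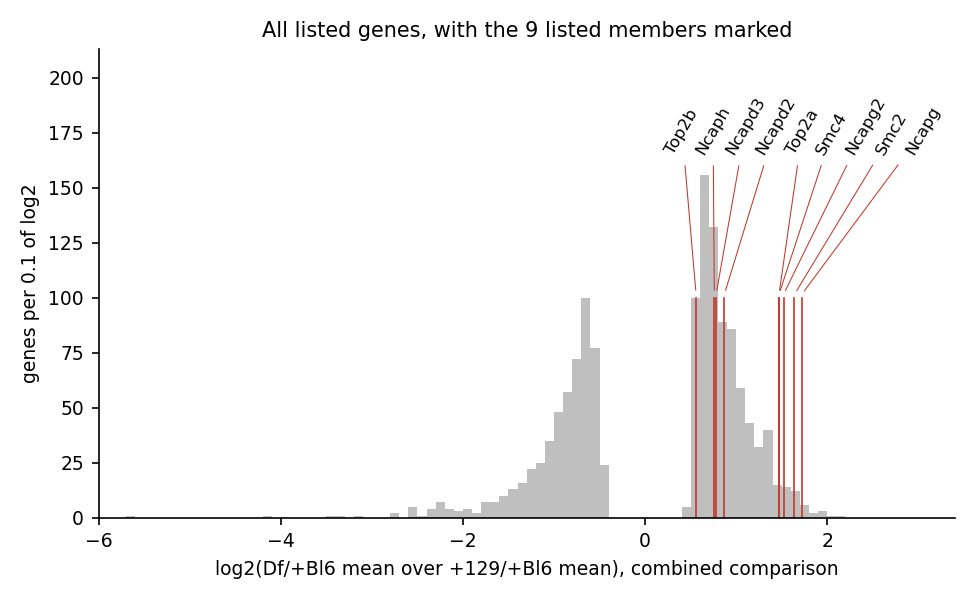
Histogram of the log2 ratio of Df/+Bl6 to +129/+Bl6 means over the 1346 genes of the combined table, with the 9 listed members as red lines. The gap around 0 is where genes did not pass the authors' threshold; Top2b (0.56) sits at the inner edge of the higher genes, and Ncapg (1.72) and Smc2 (1.64) in their upper tail.

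Levels were compared between genes as mean normalized count per kb of the longest annotated transcript. In +129/+Bl6 the order ran from Top2b (3601 per kb) through Top2a (1992) and Ncapd2 (1970) to Ncapg (313.7) and Ncapg2 (300.9). Top2a per kb was 0.553 times the level of Top2b in +129/+Bl6 and 1.04 times that level in Df/+Bl6, so the isoforms lay closer together in Df/+Bl6. Among the HEAT repeat subunits, Ncapd2 per kb was 4.05 times Ncapd3 in +129/+Bl6 and 4.33 times in Df/+Bl6, so the D subunit of condensin I had the higher transcript level in both genotypes. Ncapg per kb was 1.04 times Ncapg2 in +129/+Bl6 and 1.20 times in Df/+Bl6, but with the coding length in place of the transcript length the ratios were 0.662 and 0.764, so the order of the G subunits depends on the length used. Within condensin I, the level per kb of Ncapg relative to Ncapd2 was 0.159 in +129/+Bl6 and 0.287 in Df/+Bl6. Within condensin II, that of Ncapg2 relative to Ncapd3 was 0.618 and 1.03, but 0.982 and 1.64 per kb of coding length, so the size of this ratio depends on the length used. Whether neighbours in these orders differ beyond the spread between lines was not examined.

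**Figure D3:**
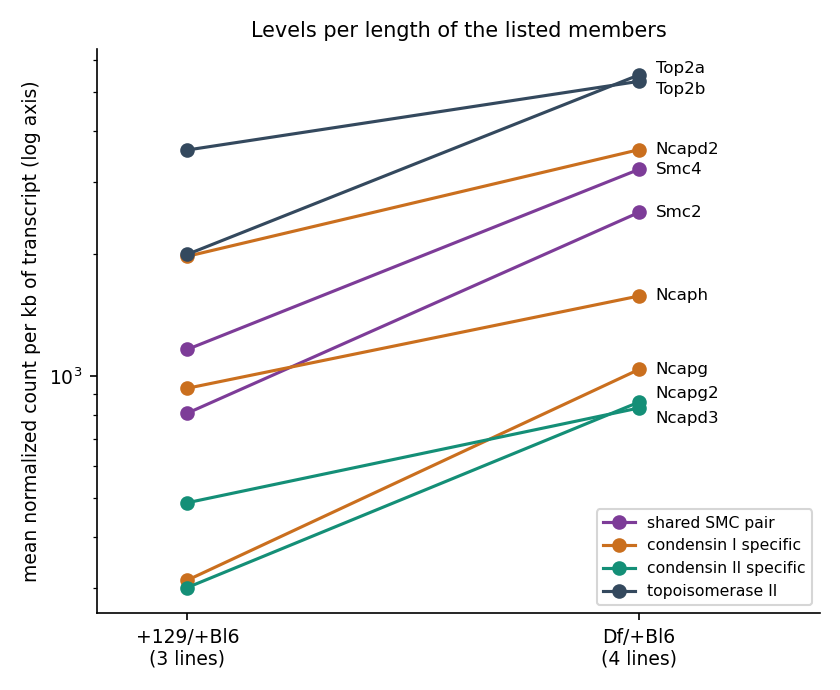
Mean normalized count per kb of the longest transcript (log axis) for the 9 listed members in +129/+Bl6 and Df/+Bl6, coloured by subgroup. Lines for Top2a and Top2b cross between the genotypes (1992 and 3601 per kb in +129/+Bl6, 5515 and 5317 in Df/+Bl6), as does the line of Ncapd3 with those of Ncapg and Ncapg2 and that of Smc2 with Ncaph. With coding lengths, Smc2 and Ncaph do not cross (1200 and 1144 per kb in +129/+Bl6), and Ncapg2 and Ncapd3 start close together (581.5 and 592.1). Smc2 and Smc4 cross only with coding lengths (1200 and 1299 per kb in +129/+Bl6, 3747 and 3607 in Df/+Bl6).

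Reads that carry a strain difference were also compared for each allele on its own, in tables that the authors normalized separately and that share the 7 lines with the combined comparison. The genes tested there are not listed, so no share of tested genes can be given. Of the 10 members, 3 were among the 257 genes of the 129S5 table and 2 among the 326 genes of the C57BL/6J table, and 7 were in neither and have no allelic value. Top2a was higher on both alleles. On the 129S5 allele the means were 209.1 for +129/+Bl6 and 689.7 for Df/+Bl6, a log2 ratio of 1.72, and on the C57BL/6J allele they were 294.3 and 950.6, a log2 ratio of 1.69. Ncapg2 was also higher on both, from 373.2 to 1045 on the 129S5 allele (log2 ratio 1.49) and from 506.1 to 1741 on the C57BL/6J allele (log2 ratio 1.78). Top2b was listed for the 129S5 allele alone, from 851.9 to 1302 (log2 ratio 0.61). Whether its C57BL/6J allele differed from that was not tested.

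The base composition of the transcripts moved with the calls. Over the 14073 tested genes with a protein-coding transcript in the annotation, the median GC content of the longest transcript was 50.4%, against 43.5% for the genes higher in Df/+Bl6 and 55.4% for those lower. Tested genes were set in 10 bins of equal size by GC content. In the bin with the least GC (31.9% to 42.1%), 20.5% of 1408 genes were listed as higher and 0.284% as lower. In the bin with the most, 0.355% were higher and 8.52% lower. Of the members, 8 lie under the median GC of the tested genes. Smc2 (39.3%), Ncapg (39.8%), Smc4 (40.2%), Ncapg2 (41.6%) and Top2b (41.8%) fall in the lowest bin and Top2a (43.4%) in the next. Ncapd3 (46.8%) and Ncaph (48.3%) share a bin where 4.98% of the tested genes were higher. Ncapd2 (53.7%) lies in a bin where 1.85% were higher and 5.05% lower, and Ncaph2 (55.7%), the member that was not listed, in one where 1.35% were higher and 6.33% lower. Read against these bins, 4 of the 5 members with a log2 ratio of at least 1 stand where listing as higher was most frequent.

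Across genes, Spearman's rho between GC content and the log2 ratio was -0.63 over the 1300 listed genes with a transcript, -0.04 over the 764 of them that were higher in Df/+Bl6, and -0.75 over the 9 listed members. Genes are not replicates, all of these values come from the same libraries, and Top2b departs from the order among the members, with a low GC content and the smallest ratio. The median transcript was 3802 bases long for genes that were higher, 2652 for genes that were lower and 3021 for all tested genes with a transcript. The part of GC content and transcript length in the members' ratios was not tested.

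**Figure D4:**
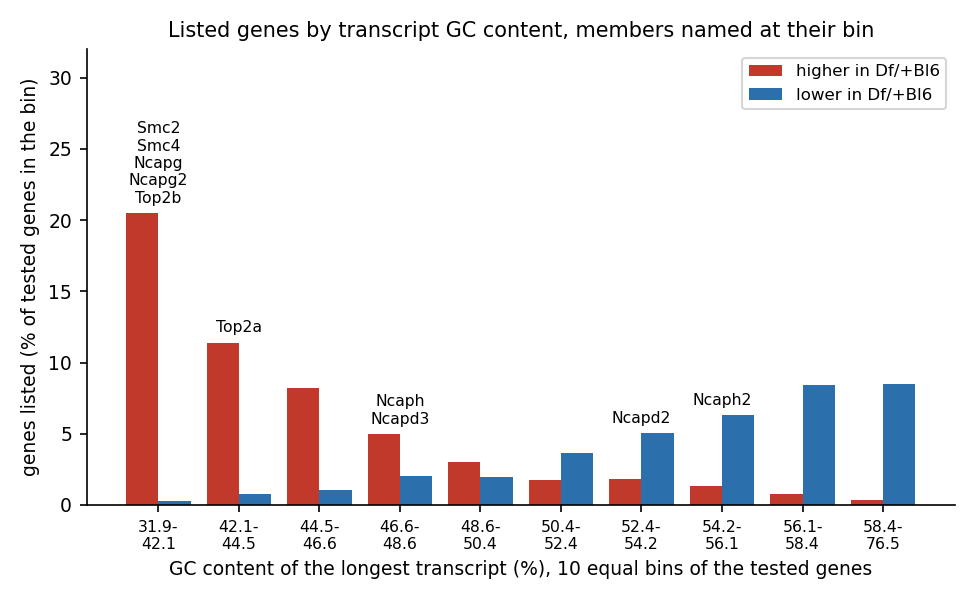
Share of tested genes listed as higher (red) or lower (blue) in Df/+Bl6 within 10 bins of the GC content of the longest transcript, with each member's name above its bin. The red bars fall from 20.5% to 0.355% and the blue bars reach 8.52% at the right; 5 members stand in the leftmost bin.

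Promoters of 9 members were found in the RefSeq table of promoter sequences (GRCm38.p6, 250 bases before to 50 after the start), with 2 windows for Ncapd3, while Smc4 was not matched. They were searched on both strands for CCAAT, the letters read by the factor NF-Y, and for TTTGAA, the core of the cell cycle element CHR, which share no overlapping matches in the windows of the members. CCAAT was in 5 of the 10 windows, and in 37.4% of the 32851 windows of the table. TTTGAA was in 6 of the 10, and in 17.9% of the windows of the table. Over promoters matched to genes higher in Df/+Bl6 by at least 1 on the log2 scale, the shares were 65.3% and 41.2% of 170 windows. Over those matched to all higher genes they were 50.2% and 23.6% of 673, to all lower genes 34.7% and 9.98% of 521, and to all tested genes 37.2% and 12.0% of 12965. Such matches describe letters and not bound sites. Promoters of 4 members are printed to show the isoforms side by side, the member with the largest ratio and the member that was not listed, in lower case with every CCAAT and TTTGAA, or its reverse complement, in capitals. Top2a lies at chr11:99024140-99024439 on the minus strand, Top2b at chr14:16364956-16365255, Ncapg at chr5:45669675-45669974 and Ncaph2 at chr15:89355469-89355768, the last 3 on the plus strand.
Top2a: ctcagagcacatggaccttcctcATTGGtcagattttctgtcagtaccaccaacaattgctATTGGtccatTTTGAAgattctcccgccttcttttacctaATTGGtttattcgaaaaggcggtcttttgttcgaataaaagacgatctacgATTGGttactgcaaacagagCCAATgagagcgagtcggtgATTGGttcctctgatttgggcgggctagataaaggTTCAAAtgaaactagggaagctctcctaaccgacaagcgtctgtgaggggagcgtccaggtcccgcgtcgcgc
Top2b: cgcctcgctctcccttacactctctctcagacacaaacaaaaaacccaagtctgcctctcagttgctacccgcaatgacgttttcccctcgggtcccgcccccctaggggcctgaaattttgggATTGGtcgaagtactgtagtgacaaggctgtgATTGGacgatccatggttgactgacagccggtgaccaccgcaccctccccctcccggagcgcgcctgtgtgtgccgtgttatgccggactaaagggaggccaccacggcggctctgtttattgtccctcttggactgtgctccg
Ncapg: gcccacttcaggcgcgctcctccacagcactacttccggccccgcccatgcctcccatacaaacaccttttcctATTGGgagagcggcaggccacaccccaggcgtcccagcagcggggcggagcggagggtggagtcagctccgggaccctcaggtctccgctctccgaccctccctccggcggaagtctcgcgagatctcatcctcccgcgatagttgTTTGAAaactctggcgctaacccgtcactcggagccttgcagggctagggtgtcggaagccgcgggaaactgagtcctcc
Ncaph2: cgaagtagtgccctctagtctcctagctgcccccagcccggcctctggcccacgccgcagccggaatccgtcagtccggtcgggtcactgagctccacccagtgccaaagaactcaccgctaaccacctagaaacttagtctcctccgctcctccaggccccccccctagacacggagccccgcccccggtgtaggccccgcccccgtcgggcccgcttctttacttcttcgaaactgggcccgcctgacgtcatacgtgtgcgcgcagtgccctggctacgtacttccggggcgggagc
The Top2a promoter holds CCAAT 6 times, 5 of them on the opposite strand, and TTTGAA 2 times, the nearer one 23 bases before the start. At least 6 CCAAT were found in 0.079% of all windows, in 0.15% of those of tested genes, in 0.45% of those of genes higher in Df/+Bl6 and in 0.59% of those higher by at least 1 on the log2 scale. The Top2b promoter holds CCAAT 2 times and no TTTGAA. In the Ncapg promoter, TTTGAA begins 30 bases before the start, and in that of Ncapg2 it begins 18 bases before. The windows of Ncaph and Ncaph2 and the first of both Ncapd3 windows, the one at the start of the gene, hold neither set of letters.

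Other complexes of the SMC family were read by the same calls. Among cohesin subunits and loaders, which hold sister chromatids together, 6 of 7 tested genes were higher in Df/+Bl6 and 0 lower, with a median log2 ratio of 0.60, below the 1.47 of the listed condensin subunits. Smc3 had the largest ratio there (0.96), followed by Stag2 (0.65), Rad21 (0.60) and Nipbl (0.60), and the loader subunit Mau2 was not listed. All 6 cohesin regulators were higher, with Esco2 (1.55), an acetyltransferase that acts in S phase, Cdca5 (1.02), which protects cohesion, Pds5b (0.83) and Esco1 (0.71) at the top. Of the SMC5/6 complex, which acts in DNA repair, 3 of 6 tested genes were higher, Smc5 by 1.11, Smc6 by 1.01 and Nsmce4a by 0.74, while Nsmce1, Nsmce2 and Ndnl2 were not listed. Eid3 was not matched to an identifier, so whether it was tested is not known. Among other topoisomerases and the proteins that act with them, 2 of 7 were higher, Topbp1 (0.87) and Top1 (0.63), and Top1mt, Top3a, Top3b, Tdp1 and Tdp2 were not listed. The differences between these lists were not tested.

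Genes that work with condensin on mitotic chromosomes were mostly higher too. Of 8 tested, 6 were higher in Df/+Bl6 with a median log2 ratio of 1.06, and Mcph1 and Akap8 were not listed. Mki67, a coat protein of mitotic chromosomes, went from 14644 to 48354 (log2 ratio 1.72), and Kif4, a motor that binds condensin, from 2532 to 5960 (1.23). Ccnb1 (1.08) and Cdk1 (1.05), which form the kinase of mitotic entry, followed.

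The cell cycle lists moved with the members. All 15 genes of the G2/M list were higher in Df/+Bl6, with a median log2 ratio of 1.14, 10 of them by at least 1, and a summed mean of 60081 in +129/+Bl6 and 131972 in Df/+Bl6. Cenpf (1.91), Kif20b (1.72), Bub1 (1.62) and Kif11 (1.62) led this list. Tpx2 had its highest mean count, which was not divided by transcript length. Of 14 S phase genes, 12 were higher, with a median of 0.86 and a summed mean of 87948 in +129/+Bl6 and 158272 in Df/+Bl6. Mcm6 (1.01), Mcm4 (0.98), Mcm5 (0.91) and Rrm2 (0.90) had the largest ratios, and Gins2 and Ung were not listed. Among the 12 listed genes, Rrm1 had the highest mean count, also not divided by length. The ratios of Smc2, Smc4, Ncapg, Ncapg2 and Top2a thus lie above the median of the G2/M list, and those of Ncapd2, Ncapd3, Ncaph and Top2b lie below it. The part of the cell cycle in the members' ratios was not tested.

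**Figure D5:**
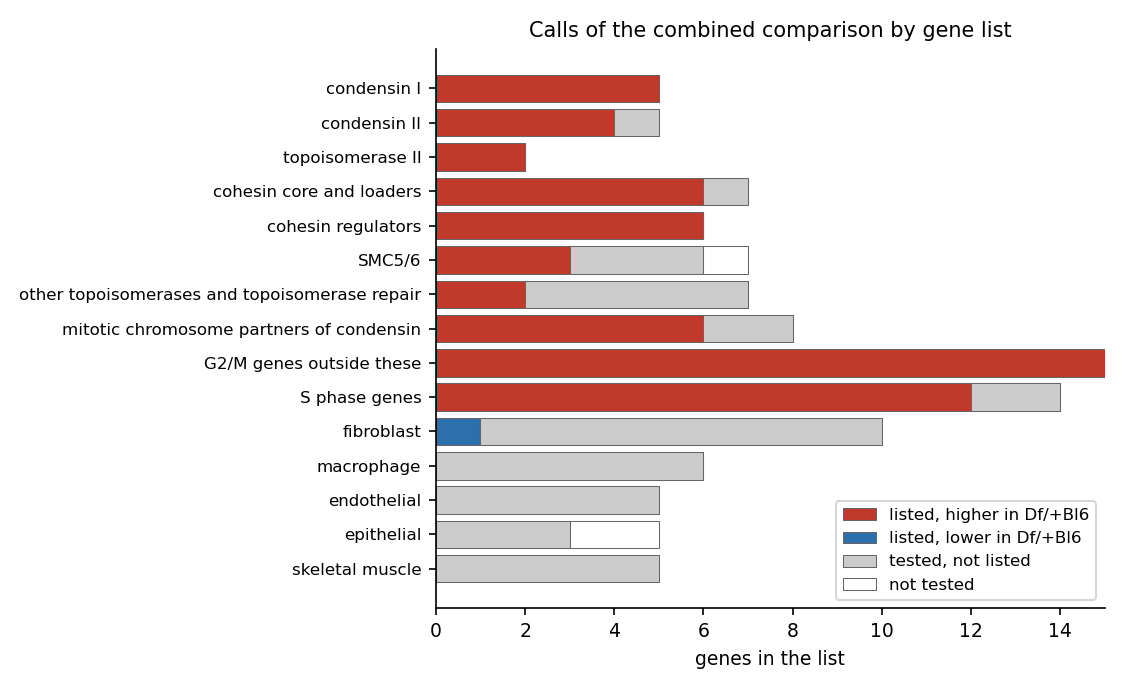
Number of genes per list that the combined comparison lists as higher (red) or lower (blue) in Df/+Bl6, that were tested but not listed (grey), or that were not tested or not matched to an identifier (white). Red fills all 15 of the G2/M list, whereas the cell type lists that are drawn show red in 0 lists and blue for fibroblast genes (1 of 10). The Schwann or neural crest list, of which S100b, Sox10 and Erbb3 were lower, is not drawn.

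Markers of cell types were examined because cultures made from whole embryo bodies can hold several. Of 10 fibroblast markers, all tested, 1 was listed, Fn1, which was lower in Df/+Bl6 with a mean of 3418220 in +129/+Bl6 and 2121647 in Df/+Bl6 (log2 ratio -0.69). Col1a1, Col1a2, Col3a1, Pdgfra, Pdgfrb, Thy1, Vim, Dcn and Lum were not listed. From a list of Schwann or neural crest markers that is given here only in part, S100b (-2.32), Sox10 (-1.53) and Erbb3 (-1.09) were lower, and the share of the list that was lower is not given. None of the tested macrophage (Ptprc, Cd68, Csf1r, Emr1, Aif1, Lyz2), endothelial (Pecam1, Cdh5, Kdr, Tek, Emcn), skeletal muscle (Myod1, Myog, Des, Acta1, Myh3) or epithelial markers (Cdh1, Krt8, Krt18) was listed, and Epcam and Krt5 were not tested. Levels of unlisted markers were not used here. The part of these cell types in the members' ratios was not tested.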

How the data were processed

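RNA of 7 primary MEF lines (4 Df/+Bl6, 3 +129/+Bl6) was sequenced by the authors from stranded polyA+ libraries, in paired ends, with an Illumina GA IIx. Reads were aligned by the authors with GSNAP, allowing no mismatch, to C57BL/6J and 129S5/SvEvBrd transcriptomes (GRCm38/mm10) holding the longest transcript of each gene, with counts of uniquely placed pairs whose mates hit the same gene. They tested genotypes with DESeq (versions not given in the sources used here). Genes with few reads on each allele were left out, and the authors' FDR was 0.05.

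The signal values come from 3 tables deposited by the authors and are means of size-factor normalized counts for each gene in each genotype (both alleles combined, 129S5 allele, C57BL/6J allele) that the authors normalized separately. In every row the overall mean equals the genotype means weighted by 4 and 3, which shows which column belongs to Df/+Bl6. The authors' fold changes, p-values and adjusted p-values in these tables were not used. A further deposited file has 9 unnamed value columns, which exceed the number of lines and were not used. Its identifiers gave the 15531 tested genes. Depth per line is therefore unknown. Because no column carried a line's name, the test foreseen for named columns (limma) was not run, and log2 ratios of the group means and presence in the authors' tables were used instead, without a test.

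Members were taken by Ensembl identifier and all are named. Of the other lists, the listed genes are given by count and up to 4 with the largest size of log2 ratio are named, with all genes that were not listed. Part of the list of Schwann or neural crest markers is not reported here, so no count of it is given. Members and lists were chosen with earlier results of these data known. Gene positions and promoters are from RefSeq (GRCm38.p6, the build of the authors' alignment). Transcript and coding lengths, GC content and shared 100-base windows are from the protein-coding transcripts of GENCODE on NCBI37, an earlier gene set than the authors', which covers 90.6% of the tested genes and all members. Alternatives were a pseudocount of 1, centring on the median of the table, a minimum mean of 1000, the allele tables and a shorter promoter window; coding length, centring within bins of GC content and every alternative for the count of members with a log2 ratio of at least 1 were chosen after seeing the data. The calculations were tested on simulated data. Tables were handled in Python 3.11.15 with pandas 2.3.3 and numpy 2.4.6, rank correlations were computed with scipy 1.17.1, and matplotlib 3.10.9 drew the plots.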

Additional observations from a re-analysis of the deposited data

How the results depend on the processing

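The median log2 ratio of the listed members, 1.47, was the same with a pseudocount of 1 and among genes with a mean of at least 1000, which kept all 9. It was 0.86 after centring on the median of the table, 1.49 over the 3 members of the 129S5 table and 1.74 over the 2 of the C57BL/6J table, which hold 3 and 2 members in place of 9. Centring within bins of GC content, chosen after seeing the data, gave 0.69. The count of members with a ratio of at least 1, whose alternatives were all chosen after seeing the data, was 5 with the pseudocount, 2 after centring on the table (Smc2 and Ncapg) and 1 after centring within GC bins (Ncapd2, whose bin has a median of -0.68 over its listed genes). The centred ratio of Top2b was -0.05 on the table and -0.22 within its GC bin. Both centrings subtract a median of listed genes, which follows the balance of higher and lower calls, so the signs after centring show nothing on stability. Of 14 ratios of single members recomputed with the pseudocount or from the allele tables, 8 were equal at 2 decimals, 6 differed and 0 changed sign. The pseudocount shifted a ratio by at most 0.0009 and cannot change its sign. Allelic values come from the same lines and exist only for genes past the authors' threshold, so the lack of sign changes shows nothing on stability either.

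With coding lengths, Top2a to Top2b per kb was 0.538 in +129/+Bl6 and 1.01 in Df/+Bl6, Ncapd2 to Ncapd3 3.57 and 3.82, Ncapg to Ncapg2 0.662 and 0.764, Ncapg to Ncapd2 0.182 and 0.329, and Ncapg2 to Ncapd3 0.982 and 1.64. In the window from 100 bases before to 50 after the start, 3 promoter windows of members held CCAAT and 4 held TTTGAA, against 23.4% and 8.01% of all promoter windows, 40.0% and 14.7% of those of genes higher in Df/+Bl6 and 52.9% and 30.6% of those higher by at least 1. The causes of these shifts were not tested. Coding length from RefSeq proteins and leaving out each line were not run, since no protein table and no value per line was used. No paired analysis was possible because the columns used are means over lines and replicate numbers are only an order. Members missing from a table have no value there, so a count of listed members says nothing on the size of change of the others.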
